A study of Mus musculus with 2 samples.

Results

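Prostaglandins are short-lived lipid signals, and 9 genes that make them, break them down or receive them are described here by kidney cell type: Ptgs1, Ptgs2, Ptges, Ptgds, Ptgis, Hpgd, Ptger1, Ptger3 and Ptger4. They were taken by name, all 9 are among the 32285 genes of the count matrices, and each was counted as unique molecular identifiers (UMIs, 1 per captured RNA molecule) in single cells. The kidneys were collected on day 14 after 1 kidney had been made ischaemic by clamping its renal artery and reperfused, and all mice received 4 tamoxifen injections after the injury. The study compared mice labelled Cre- (control) with mice labelled Cdh5-CreERT2; Phd3f/+ (haplodeficient), which carry 1 floxed allele of Phd3, whose gene symbol is Egln3, an oxygen-sensing prolyl hydroxylase. In these mice a tamoxifen-inducible Cre is driven by the promoter of the endothelial gene Cdh5, so the allele is targeted in cells that express Cdh5, chiefly endothelial cells. Both libraries carry the same batch label. Whether the control mice carry the floxed allele, and how many animals went into a library, are not given in the labels. The protocol names a cell hashing library, and no map of cells to animals was used here. Each group has 1 library, so no test between groups was possible and every interval below is a 95% interval of counting error only, which leaves out differences between animals and preparations.

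The control library gave 8737 cells with a median of 8780 UMIs and the haplodeficient library 9222 cells with a median of 5473.5. The median mitochondrial share was 10.1% in the control library and 2.69% in the haplodeficient library, and 22 cell barcodes occurred in both. Cells were clustered without the 9 genes and without the other pathway genes, so no cell class below was defined by them, and a class was named, as "X-like", from marker genes. The set of cells with renin-cell genes below is a subset of a class, and Akr1b7, a pathway gene, is among the genes that define it. There were 363 control and 804 haplodeficient endothelial-like cells, which held Pecam1 at 857 and 835 CPM (UMIs per 1000000 UMIs of the class in that library) and Cdh5 at 701 and 710 CPM. Proximal tubule-like cells were 3182 and 448, the widest gap among tubule classes. A cluster that the marker rule would call podocyte was led by Tnc, Tagln and Wt1 and had Nphs1 at 31.9 CPM in both libraries. Since this podocyte gene was that low, it is called the Wt1- and Tnc-led cluster. Egln3 itself stood at 23.7 CPM (58 UMIs) in control and 21.1 CPM (117 UMIs) in haplodeficient endothelial-like cells, a ratio of 0.891 (interval 0.645 to 1.24). A floxed allele can still give transcripts, so this 3' count does not check the recombination.

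As background, phospholipases free arachidonic acid from membranes, the cyclooxygenases COX-1 (gene Ptgs1) and COX-2 (Ptgs2) turn it into prostaglandin H2, and terminal synthases then make prostaglandin E2, D2, prostacyclin or thromboxane. The enzyme 15-hydroxyprostaglandin dehydrogenase (Hpgd) inactivates prostaglandins E2 and F2-alpha once the transporter encoded by Slco2a1 has brought them into the cell. In the kidney, prostaglandin E2 acts on the receptors EP1 (Ptger1), EP3 (Ptger3) and EP4 (Ptger4) to adjust salt and water transport, renin release and vessel tone. Medullary and collecting duct cells, interstitial cells and the macula densa are textbook sources.

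The COX genes are shown first by the bases in front of them, because these enzymes share a substrate and product. Both genes were read in neutrophil- and macrophage-like cells, as given below. The 250 bases before each start are from RefSeq (GRCm38.p6), on the plus strand at chr2:36230176-36230425 for Ptgs1 and chr1:150099781-150100030 for Ptgs2. Motifs searched on both strands were the E-box (CACGTG), the core of the cyclic AMP response element (CGTCA), the TATA box (TATAAA) and a C/EBP motif (TGCGCAA), and the capitals mark the match found, a run that holds TGCGCAA on both strands with 6 bases in common.
Ptgs1: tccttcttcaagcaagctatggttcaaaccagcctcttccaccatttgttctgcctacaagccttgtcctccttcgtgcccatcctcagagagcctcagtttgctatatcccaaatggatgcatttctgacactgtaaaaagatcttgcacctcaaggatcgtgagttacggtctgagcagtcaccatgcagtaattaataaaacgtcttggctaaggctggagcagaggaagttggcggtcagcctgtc
Ptgs2: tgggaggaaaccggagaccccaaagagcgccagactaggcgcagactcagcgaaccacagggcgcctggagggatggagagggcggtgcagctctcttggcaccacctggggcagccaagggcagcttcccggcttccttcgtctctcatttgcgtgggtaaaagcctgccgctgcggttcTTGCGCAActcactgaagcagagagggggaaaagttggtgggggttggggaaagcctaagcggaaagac
The other 3 motifs were found in neither stretch. Bases past each start were not searched, so this does not show that either promoter lacks them. TGCGCAA is in 1.69% of the 32851 promoters of the same length. The Ptgs2 stretch is 61.6% G or C and the Ptgs1 stretch 48.0%, against a median of 52.4% over all promoters. A letter match is a description and shows no binding. The table held 7 of the 9 genes.

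Gene positions are from GENCODE M21 (GRCm38). Ptgs2 (ENSMUSG00000032487, chromosome 1, 150100031 to 150108227, plus strand), the inducible COX gene, was foremost a neutrophil RNA. Neutrophil-like cells held 1460 CPM in the control library (241 UMIs, interval 1281 to 1656) and 1429 CPM in the haplodeficient library (1682 UMIs, 1361 to 1498). The ratio between the libraries was 0.979 (0.854 to 1.12), so the levels differed by less than the counting error. With each cell thinned to 1000 UMIs, 54.2% of control and 54.6% of haplodeficient neutrophil-like cells had a Ptgs2 UMI (59.2% and 63.3% without thinning). T cell-like cells, which should lack it, gave 0% and 0.295% on the same scale, with 0 of 174 cells in the control library, and had median depths of 2702.5 and 2581 UMIs against 1559 and 1774 in neutrophil-like cells. Neutrophil-like cells were 103 and 616 in number and held 20.1% and 51.9% of each library's Ptgs2 UMIs.

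Dendritic cell-like cells came next, with 268 CPM in control cells (236 to 304) and 120 CPM in haplodeficient cells (104 to 138). This was the lowest Ptgs2 ratio among the compared classes where it was eligible, 0.448 (0.370 to 0.542), or -1.13 on the log2 scale after adding 5 CPM. A gene was counted as higher or lower when that log2 difference reached 1 in size and the 2 intervals were apart, among genes that averaged 10 CPM or more and had 30 UMIs or more. In dendritic cell-like cells 2.04% of all eligible genes met this rule. The Ptgs2 difference did not meet it under 5 other ways of choosing the cells: -0.86 from 1000 UMIs per cell upward, -0.59 with at most 25% mitochondrial UMIs, -0.81 with likely doublets kept, -0.57 with finer clustering and -0.37 with each cell classed by its own markers. With the 25% limit the class held 69 and 79 cells, of which 12 and 14 were in the class used here and 50 and 45 in an Xcr1- and Wdfy4-led cluster left unnamed here, and with finer clustering it held 63 and 73 cells, of which again 12 and 14 were in the class used here. Summed neutrophil markers stood at 242 and 161 CPM and summed macrophage markers at 3802 and 4759 CPM in these cells, and their part in the result was not tested.

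Macrophage-like cells held 87.2 (79.4 to 95.6) and 77.3 CPM (72.0 to 82.8) of Ptgs2, with overlapping intervals, and 37.9% and 24.5% of each library's Ptgs2 UMIs. Their larger clusters were alike: the Mrc1- and Ccl8-led cluster had 91.1 and 82.1 CPM, and the Trem2- and Gpnmb-led cluster 87.0 and 79.8 CPM. Monocyte-like cells, with 55 control and 375 haplodeficient cells, gave 73.0 and 72.1 CPM. Monocyte- and macrophage-like cells did not differ beyond counting error within either library. Fibroblast-like cells gave 43.9 and 23.1 CPM on 25 and 21 UMIs, with overlapping intervals (28.4 to 64.8 and 14.3 to 35.3).

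Pericyte or smooth muscle-like cells had 48.8 (33.4 to 68.9) and 85.0 CPM (69.5 to 103) of Ptgs2, a ratio of 1.74 (1.16 to 2.68) that was under the size rule (0.74 on the log2 scale, and 1.17 without the cell of most Ptgs2 UMIs in each library). A subset of this class had UMIs of at least 2 renin-cell genes (of Ren1, Akr1b7, Gpc5 and Adra1b). There, 30 control cells held 2 Ptgs2 UMIs (16.6 CPM) and 44 haplodeficient cells held 41 UMIs (198 CPM) in 9 cells. In the remaining pericyte or smooth muscle-like cells the values were 56.0 and 62.0 CPM. The split was not repeated without the cell of most Ptgs2 UMIs, so it does not settle where the difference of the class lay. Genes known to rise during tissue dissociation (Fos, Jun, Atf3 and 11 others) summed to 26965 and 36510 CPM in the renin-gene cells, and their part in this was not tested.

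Epithelial Ptgs2 was low. The macula densa is the textbook site of tubular COX-2. Thick ascending limb-like cells with UMIs of at least 2 macula densa genes (of Nos1, Pappa2, Avpr1a, Robo2, Bmp3 and Oxtr) were 78 and 189. They had 9.59 (6.14 to 14.3) and 4.95 CPM (3.45 to 6.89), above the 0.979 and 0.805 CPM of the other thick ascending limb-like cells. Their median depths were 26930 and 32773 UMIs against 10469 and 8428 in the others. The rule favours deeply read cells, so the set may hold cells other than macula densa. Barcodes with 1 to 100 UMIs, taken as free RNA, held Ptgs2 at 7.70 and 28.2 CPM, and the Ptgs2 level of each tubule class of the haplodeficient library lay below that of its free RNA. Free RNA was estimated at 4.21% of the UMIs of the haplodeficient cells with macula densa genes. A level below that of free RNA therefore does not show whether the Ptgs2 UMIs of tubule cells were free RNA. In the Aqp2- and Aldh1a3-led cluster of principal-like cells the control library held 51 Ptgs2 UMIs (24.9 CPM) in 134 cells, and the haplodeficient library none in 48 cells, where 3 UMIs would be 5.75 CPM. Those 51 UMIs lay in 7 cells, and 27 of them in 1 cell.

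Ptgs1 (ENSMUSG00000047250, chromosome 2, 36230426 to 36252272, plus strand), the constitutive COX gene, was spread over collecting duct, macrophage, neutrophil and endothelial classes. Principal or connecting tubule-like cells held 90.0 CPM (83.3 to 97.2) in control and 53.8 CPM (48.6 to 59.4) in haplodeficient cells, a ratio of 0.598 (0.526 to 0.678) under the size rule. Within this class the Aqp2-led cluster gave 152 and 124 CPM, with overlapping intervals (135 to 169 and 96.1 to 159), and the S100g- and Trpv5-led, connecting tubule-like cluster 65.8 and 48.4 CPM. The Aqp2-led cluster was 134 of 595 control and 48 of 681 haplodeficient cells of the class, so the ratio of the class also holds this difference in make-up. Macrophage-like cells stood at 60.1 and 61.7 CPM (ratio 1.03, 0.895 to 1.18), and neutrophil-like cells at 109 and 76.4 CPM with overlapping intervals. Urothelium-like cells, only 19 and 25 of them, had the highest level of any named class at 155 and 174 CPM. Proximal tubule-like cells had 0.326 and 0.755 CPM. Dendritic cell-like cells gave 8.68 and 21.1 CPM on 8 and 35 UMIs, with intervals that overlapped (3.75 to 17.1 and 14.7 to 29.4).

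Endothelial-like cells as a whole had Ptgs1 at 26.1 (20.1 to 33.4) and 47.8 CPM (42.2 to 53.9), a ratio of 1.83 (1.39 to 2.44), or 0.76 on the log2 scale. By subtype, capillary endothelial-like cells led with 77.6 (48.6 to 118) and 107 CPM (89.8 to 127), and glomerular endothelial-like cells followed with 41.8 and 46.9 CPM. Both pairs of intervals overlapped between the libraries. With finer endothelial clustering the control capillary value was 36.2 CPM, below the 41.8 CPM of control glomerular-like cells as clustered here. The lead of capillary-like cells in the control library may therefore depend on the clustering. Arterial-like cells gave 12.9 and 16.7 CPM, and descending vasa recta-like cells had 1 UMI in control and 12 UMIs (10.9 CPM) in haplodeficient cells. Capillary-like cells were 85 of 363 control and 277 of 804 haplodeficient endothelial-like cells. Among all eligible endothelial genes 1.06% met the size rule, and none of the 9 genes did.

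**Figure D1:**
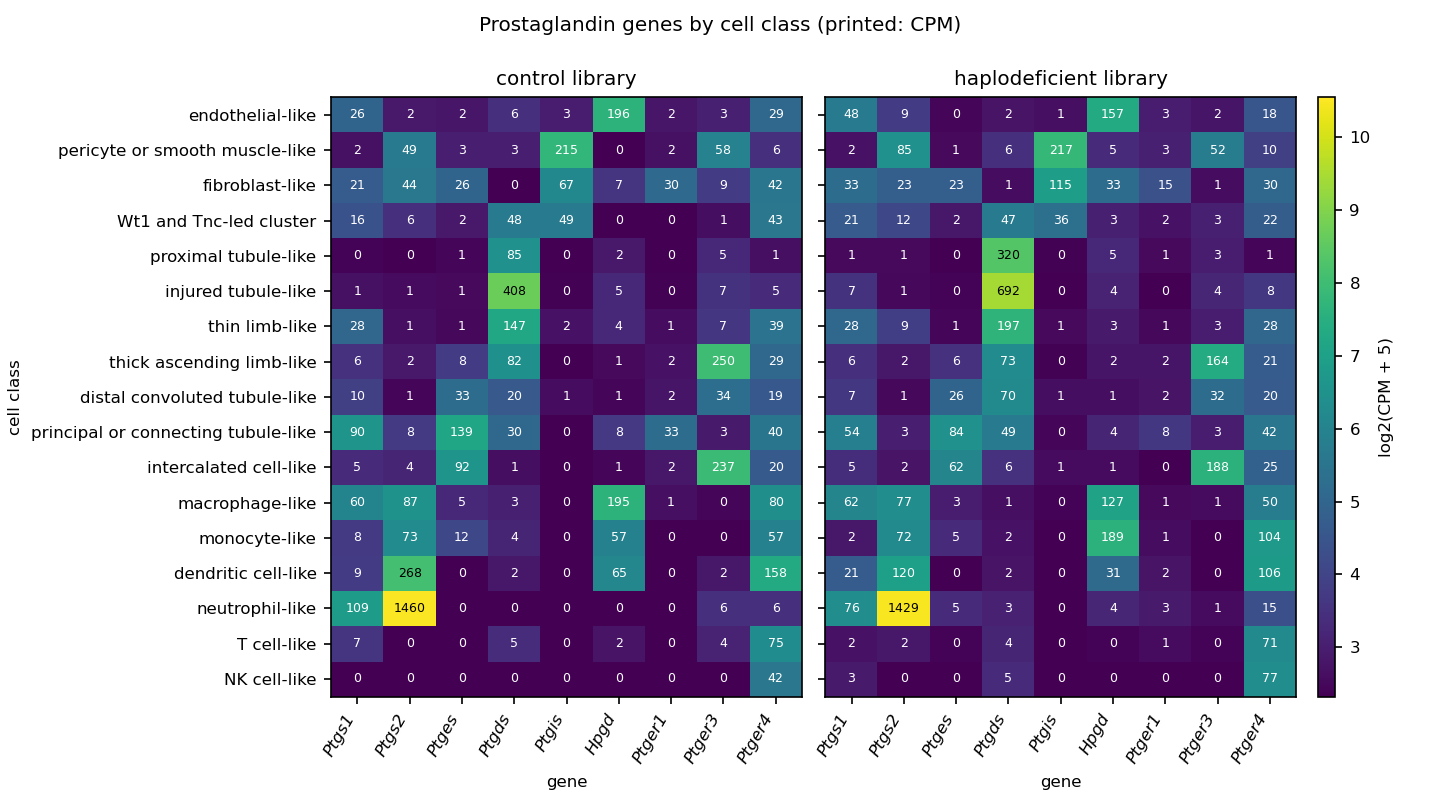
Level of each of the 9 genes (columns) in 17 cell classes (rows) in the control library (left) and the haplodeficient library (right), coloured by log2(CPM + 5) with the CPM printed in each cell. Ptgs2 is brightest in neutrophil-like cells (1460 and 1429 CPM), Ptgds in injured tubule-like cells (408 and 692 CPM), and Ptgis in pericyte or smooth muscle-like cells (215 and 217 CPM). NK cell-like, monocyte-like and Wt1- and Tnc-led cells have under 100 cells in the control library.

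Among the terminal synthases, Ptges (ENSMUSG00000050737, chromosome 2, 30889471 to 30929863, minus strand), which encodes the membrane-bound prostaglandin E synthase, was chiefly a gene of connecting tubule and collecting duct classes. Principal or connecting tubule-like cells held 139 CPM in control (131 to 148) and 84.4 CPM in haplodeficient cells (77.9 to 91.3). Intercalated cell-like cells followed with 91.5 CPM (78.0 to 107) and 62.1 CPM (48.2 to 78.8). Control values were higher in both classes, with ratios of 0.606 (0.548 to 0.671) and 0.679 (0.504 to 0.906), and neither met the size rule. The S100g-led and the Aqp2-led cluster did not differ beyond counting error in either library, at 137 and 144 CPM in control and 84.0 and 90.0 CPM in haplodeficient cells. An unnamed cluster of 293 and 230 deeply read cells with intercalated and principal genes together gave 148 and 94.2 CPM. Distal convoluted tubule-like cells had 32.8 and 26.2 CPM, fibroblast-like cells 26.3 and 23.1 CPM, and macrophage-like cells 4.61 and 2.73 CPM.

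Ptgds (ENSMUSG00000015090, chromosome 2, 25466709 to 25470046, minus strand) encodes lipocalin-type prostaglandin D synthase, which is also a secreted carrier of small lipophilic molecules, and here it was a tubule RNA. Injured tubule-like cells held the most, with 408 CPM (393 to 424) in control and 692 CPM (663 to 722) in haplodeficient cells, a ratio of 1.69 (1.60 to 1.79) under the size rule. With each cell classed by its own markers the levels were 314 and 372 CPM and the log2 difference 0.24 in place of 0.75. Thin limb-like cells had 147 and 197 CPM, and thick ascending limb-like cells 81.9 and 73.1 CPM. In intercalated cell-like cells it was 1.12 and 6.40 CPM and in T cell-like cells 5.33 and 4.07 CPM, although free RNA held it at 64.4 and 90.9 CPM.

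Proximal tubule-like cells had the highest Ptgds ratio among the classes where it was eligible, with 84.8 CPM (81.9 to 87.7) in control and 320 CPM (305 to 336) in haplodeficient cells. The ratio was 3.78 (3.56 to 4.01), 1.86 on the log2 scale, and met the size rule, as 2.89% of all eligible genes did in this class. After thinning to 1000 UMIs, 5.59% of control and 22.8% of haplodeficient proximal tubule-like cells had a Ptgds UMI (24.6% and 56.7% without thinning). Each of the 3 larger proximal clusters showed it apart: 152 and 353 CPM in the deeply read Slc5a2- and Slc5a12-led cluster, 22.6 and 134 CPM in the Slc22a6- and Slc7a13-led cluster, and 101 and 544 CPM in the shallow Dnase1- and Spp2-led cluster. Several other values moved with the library in these cells. Summed injured tubule markers were 429 and 850 CPM and summed proximal tubule markers 18810 and 14943 CPM. The median mitochondrial share was 22.3% and 6.79%, and the dissociation genes had a median log2 difference of 0.85 against 0.20 over all eligible genes. The part of these in the Ptgds result was not tested. The log2 difference lay between 1.44 and 1.96 under all alternatives run.

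Distal convoluted tubule-like cells showed the other Ptgds difference that met the rule, 19.8 CPM (16.6 to 23.3) in control and 69.5 CPM (62.5 to 77.2) in haplodeficient cells. The ratio was 3.51 (2.88 to 4.31), beside 1.53% of eligible genes in that class. Summed distal convoluted tubule markers stood at 7127 and 3155 CPM and summed thin limb markers at 139 and 326 CPM there, with 3 of 9 thin limb markers higher. Summed injured tubule markers were 1153 and 1181 CPM. The part of these in the result was not tested. Principal or connecting tubule-like cells had 29.6 and 49.1 CPM of Ptgds (ratio 1.66, 1.40 to 1.97), a log2 difference of 0.64 that was 1.01 with clusters weighted equally and 0.23 with doublets kept. The thick ascending limb-like clusters went opposite ways: 133 and 170 CPM in the Psca- and Mmp7-led cluster, and 47.9 and 29.3 CPM in the Egf- and Umod-led cluster. In that class 0.982% of eligible genes met the size rule, in injured tubule-like cells 1.74% and in thin limb-like cells 1.67%.

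**Figure D2:**
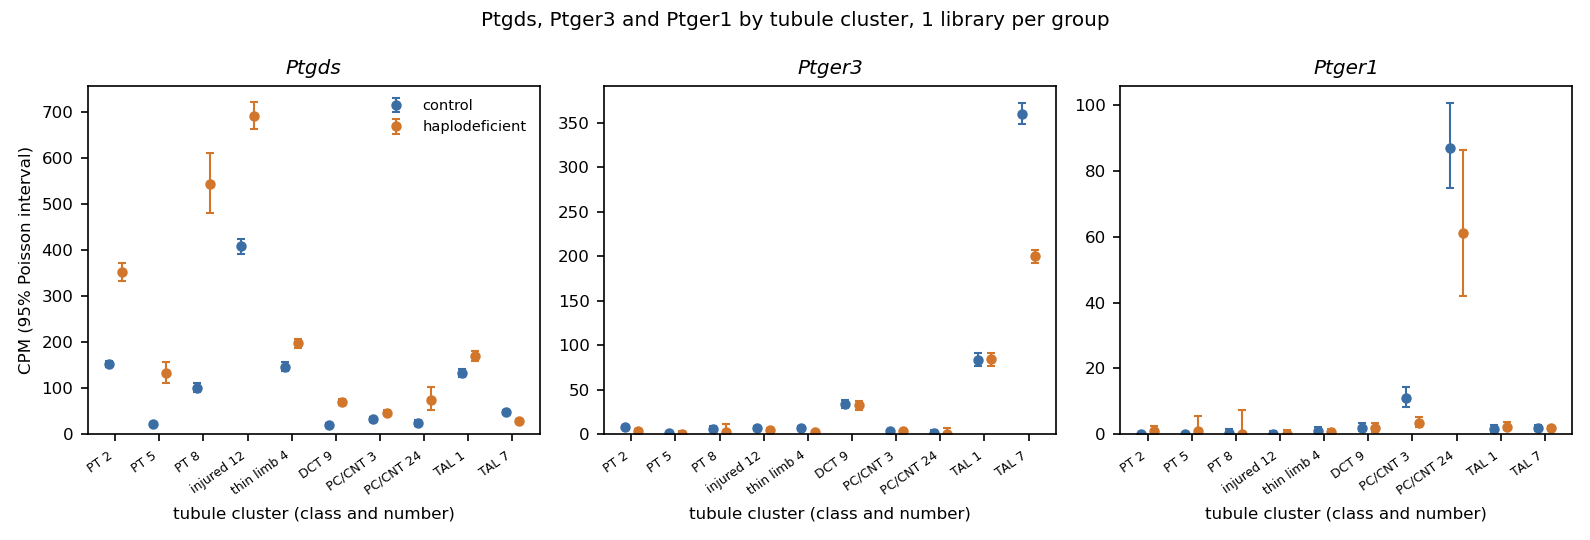
CPM of Ptgds, Ptger3 and Ptger1 (vertical axes from 0) in tubule clusters with at least 30 cells in each library, with class and cluster number on the horizontal axis (PT proximal, DCT distal convoluted, PC/CNT principal or connecting, TAL thick ascending limb). Points are 1 library each, blue control and orange haplodeficient, with exact Poisson intervals. The haplodeficient Ptgds points lie above the control points in all 3 proximal clusters, Ptger3 peaks in TAL cluster 7 (361 and 200 CPM) and Ptger1 in PC/CNT cluster 24 (87.0 and 61.3 CPM).

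Ptgis (ENSMUSG00000017969, chromosome 2, 167191805 to 167240604, minus strand), prostacyclin synthase, was a mesenchymal RNA. Pericyte or smooth muscle-like cells held 215 CPM (181 to 254) in control and 217 CPM (191 to 244) in haplodeficient cells, a ratio of 1.01 (0.819 to 1.25). The haplodeficient level was 133 CPM with doublets kept and 137 CPM with each cell classed by its own markers. Fibroblast-like cells had 66.8 CPM (47.2 to 91.6) and 115 CPM (94.4 to 140), a ratio of 1.73 (1.18 to 2.57) under the size rule. The Wt1- and Tnc-led cluster followed with 49.0 and 36.4 CPM. These 3 groups were in the same order in both libraries, although the fibroblast-like and Wt1- and Tnc-led intervals overlapped in the control library. Endothelial-like cells, a textbook source of prostacyclin, had only 7 Ptgis UMIs in each library (2.86 and 1.26 CPM). No endothelial subtype reached 10 CPM, and free RNA held 1.73 and 3.64 CPM. In pericyte or smooth muscle-like cells 1.85% of all eligible genes met the size rule, and none of the 9 genes did.

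Hpgd (ENSMUSG00000031613, chromosome 8, 56294585 to 56321043, plus strand), the gene of the prostaglandin-inactivating enzyme, marked a single endothelial subtype among the 5 named. Descending vasa recta-like cells, from the vessels that carry blood into the medulla, held 697 CPM (463 UMIs, 635 to 763) in the control and 759 CPM (834 UMIs, 708 to 812) in the haplodeficient library. The libraries did not differ there beyond counting error (ratio 1.09, 0.971 to 1.22). Capillary-like cells had 3.53 and 2.40 CPM, arterial-like cells 2.15 and 14.8 CPM, glomerular-like cells 0 and 10.4 CPM, and venous or ascending vasa recta-like cells no UMI in either library. Upper ends of the intervals of these 4 subtypes were at most 31.3 CPM. At 1000 UMIs per cell, 38.2% and 48.1% of descending vasa recta-like cells had an Hpgd UMI (75.5% and 67.7% without thinning), against 0% and 0.383% of capillary-like cells. Median depths were 4869 and 4373 UMIs in the former and 2540 and 3410 in the latter. The ratio for all endothelial-like cells, 0.801 (0.716 to 0.897) from 196 and 157 CPM, stood beside a share of descending vasa recta-like cells of 94 in 363 and 161 in 804. Hpgd had not been used to cluster or to name these cells.

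**Figure D3:**
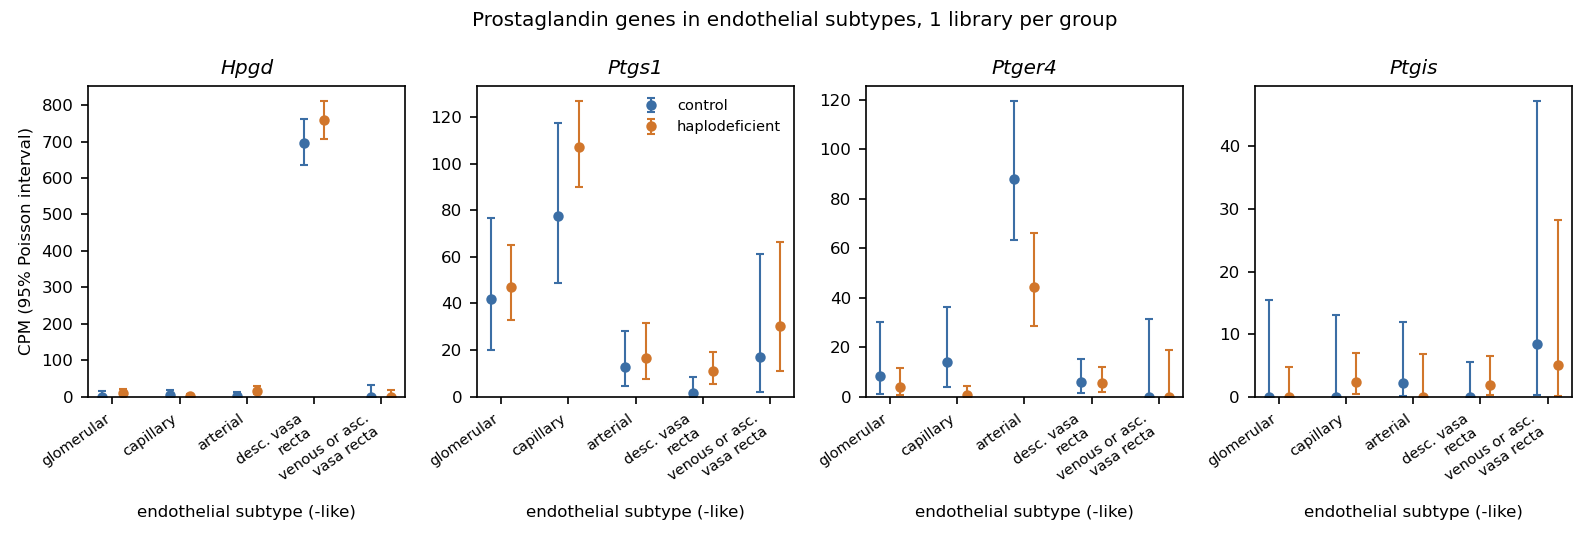
CPM of Hpgd, Ptgs1, Ptger4 and Ptgis (1 panel each, vertical axis from 0 on its own scale) in the 5 named endothelial subtypes, with 1 point per library and exact Poisson intervals. Hpgd is at 697 and 759 CPM in descending vasa recta-like cells and near 0 elsewhere, Ptgs1 peaks in capillary-like cells (77.6 and 107 CPM), Ptger4 in arterial-like cells (88.1 and 44.5 CPM), and Ptgis stays under 10 CPM throughout.

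The other large store of Hpgd RNA was myeloid. Macrophage-like cells had 195 CPM (184 to 208) in control and 127 CPM (121 to 135) in haplodeficient cells, and held 49.2% and 39.7% of each library's Hpgd UMIs. The ratio of 0.652 (0.601 to 0.709) was under the size rule, which 0.837% of eligible macrophage genes met. The Mrc1- and Ccl8-led cluster (277 and 213 CPM) stood above the Trem2- and Gpnmb-led cluster (104 and 69.9 CPM) in both libraries. The latter was 174 of 819 control and 415 of 1383 haplodeficient macrophage-like cells, and control was higher within each, with ratios of 0.768 (0.695 to 0.850) and 0.671 (0.565 to 0.797). Dendritic cell-like cells had 65.1 and 30.8 CPM, a log2 difference of -0.97 with intervals apart (49.7 to 83.8 and 22.9 to 40.5), just short of the size limit of 1. It was 0.00 with the 25% mitochondrial limit and with finer clustering, where the class was mostly other cells and held no Hpgd UMI, -0.20 with doublets kept, and -1.66 without the cell of most Hpgd UMIs in each library. The direction was the other way in monocyte-like cells, at 56.8 and 189 CPM, where the control library had 55 cells.

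In fibroblast-like cells Hpgd met the size rule on few counts, with 4 UMIs (7.03 CPM) in 3 control cells and 30 UMIs (33.0 CPM) in 13 haplodeficient cells. The ratio of 4.69 had an interval of 1.65 to 18.3, and 3.30% of eligible fibroblast genes met the rule. The log2 difference of 1.66 became 0.86, under the rule, with likely doublets kept. Summed macrophage markers were 297 and 144 CPM and summed endothelial markers 297 and 447 CPM in these cells, and 5 of 14 endothelial markers (Cdh5, Kdr, Tie1, Robo4 and Cldn5) had no UMI in the control and none of the 14 lacked one in the haplodeficient library. Their part in the result was not tested.

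The 3 EP receptor genes were highest in different cell classes, although the classes that held them overlapped. Ptger3 (ENSMUSG00000040016, chromosome 3, 157566892 to 157645888, plus strand), whose receptor EP3 lowers cyclic AMP, was a gene of thick ascending limb-like cells, at 250 CPM (242 to 258) in control and 164 CPM (158 to 169) in haplodeficient cells, and of intercalated cell-like cells, at 237 CPM (215 to 261) and 188 CPM (163 to 216). The 2 classes did not differ beyond counting error in the control library, and their intervals also overlapped in the haplodeficient library. With each cell classed by its own markers, the intercalated cell-like values were 130 and 100.2 CPM. The ratio in the thick ascending limb was 0.654 (0.625 to 0.685), under the size rule. The gap lay in the Egf- and Umod-led cluster of 525 and 484 cells (361 and 200 CPM, ratio 0.554, 0.527 to 0.583), while the Psca- and Mmp7-led cluster of 504 and 674 cells had 83.3 and 84.1 CPM (1.01, 0.893 to 1.14). Umod itself was at 17033 and 9804 CPM and Slc12a1 at 6381 and 5843 CPM in the first of these clusters. Intercalated cell-like cells had a Ptger3 ratio of 0.794 (0.669 to 0.940), and 2.78% of their eligible genes met the size rule. Pericyte or smooth muscle-like cells came next with 57.9 and 51.5 CPM, then distal convoluted tubule-like cells with 33.9 and 32.3 CPM, both with overlapping intervals. Principal or connecting tubule-like cells had 2.63 and 2.85 CPM, against 31.7 and 35.1 CPM in free RNA.

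Ptger1 (ENSMUSG00000019464, chromosome 8, 83666678 to 83672753, plus strand) had the fewest UMIs of these receptors. It was read in principal or connecting tubule-like cells and, on few UMIs, in fibroblast-like cells. Its receptor EP1 signals through calcium and is known to reduce sodium uptake in the collecting duct. Principal or connecting tubule-like cells held 32.5 CPM (235 UMIs, 28.5 to 36.9) in control and 7.59 CPM (56 UMIs, 5.73 to 9.86) in haplodeficient cells. The ratio of 0.234 (0.171 to 0.314), -1.57 on the log2 scale, met the size rule, as 1.95% of eligible genes did in this class. The level lay mainly in the Aqp2- and Aldh1a3-led cluster, at 87.0 CPM (74.7 to 101) in 134 control cells and 61.3 CPM (41.9 to 86.5) in 48 haplodeficient cells, where the intervals overlapped. The S100g-led cluster of 461 and 633 cells had 11.0 and 3.50 CPM. With both clusters weighted equally in both libraries the log2 difference was -0.53 and no longer met the rule. Summed principal or connecting tubule markers were 14025 and 6547 CPM in the class. The unnamed cluster with intercalated and principal genes had 25.2 and 3.56 CPM of Ptger1 (ratio 0.141, 0.0937 to 0.206). Fibroblast-like cells had 29.9 and 15.4 CPM of Ptger1 on 17 and 14 UMIs, with overlapping intervals. The haplodeficient value stood above the 7.59 CPM of principal or connecting tubule-like cells in that library.

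Ptger4 (ENSMUSG00000039942, chromosome 15, 5206661 to 5244187, minus strand), whose receptor EP4 raises cyclic AMP, had the widest spread, with 10 of the 14 compared classes eligible. Of these, dendritic cell-like cells as clustered here had the highest level, with 158 CPM (134 to 186) in control and 106 CPM (91.1 to 123) in haplodeficient cells, a ratio of 0.671 (0.535 to 0.841). With the 25% mitochondrial limit, under which the class was mostly other cells, the values were 75.1 and 70.7 CPM, and with finer clustering 82.2 and 63.2 CPM, near the macrophage- and T cell-like values that follow. Macrophage-like cells had 80.1 and 50.1 CPM (0.625, 0.548 to 0.713), and T cell-like cells 74.6 and 71.4 CPM (0.958, 0.687 to 1.36), where 2.55% of eligible genes met the size rule. Monocyte-like cells, not compared, had 56.8 and 104 CPM. Neutrophil-like cells, the highest in Ptgs2, had only 6.06 and 15.3 CPM on 1 and 18 UMIs, and 3.85% of their eligible genes met the rule. In tubule classes Ptger4 lay between 19.1 and 42.2 CPM in principal or connecting tubule-, thin limb-, thick ascending limb-, intercalated cell- and distal convoluted tubule-like cells of both libraries. Among endothelial subtypes arterial-like cells stood out, with 88.1 CPM (63.2 to 120) in 53 control cells and 44.5 CPM (28.5 to 66.2) in 74 haplodeficient cells, intervals that overlapped narrowly. They were 53.7 and 26.6 CPM with each cell given a subtype by its own markers. No other named endothelial subtype passed 14.1 CPM.

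Over the 14 classes with at least 100 cells in each library, 44 of the 126 pairs of a gene and a class were eligible. Of these, 3 were higher and 2 lower in the haplodeficient library by the size rule (11.4%), against 1.98% of all 112125 eligible pairs of a gene and a class. The higher ones were Ptgds in proximal and distal convoluted tubule-like cells and Hpgd in fibroblast-like cells, and the lower ones Ptgs2 in dendritic cell-like cells and Ptger1 in principal or connecting tubule-like cells. The 44 pairs had a median log2 difference of -0.16, and 17 of them were above 0. The prostaglandin genes were chosen with earlier results of these data known. The shares of 11.4% and 1.98% are therefore not independent, and no conclusion is drawn from the gap between them. With genes eligible from 50 CPM, 2 of the members' pairs met the rule in place of 5. The Ptgs2, Hpgd and Ptger1 differences fell short of it under some other choices or weightings of the cells, as given above.

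**Figure D4:**
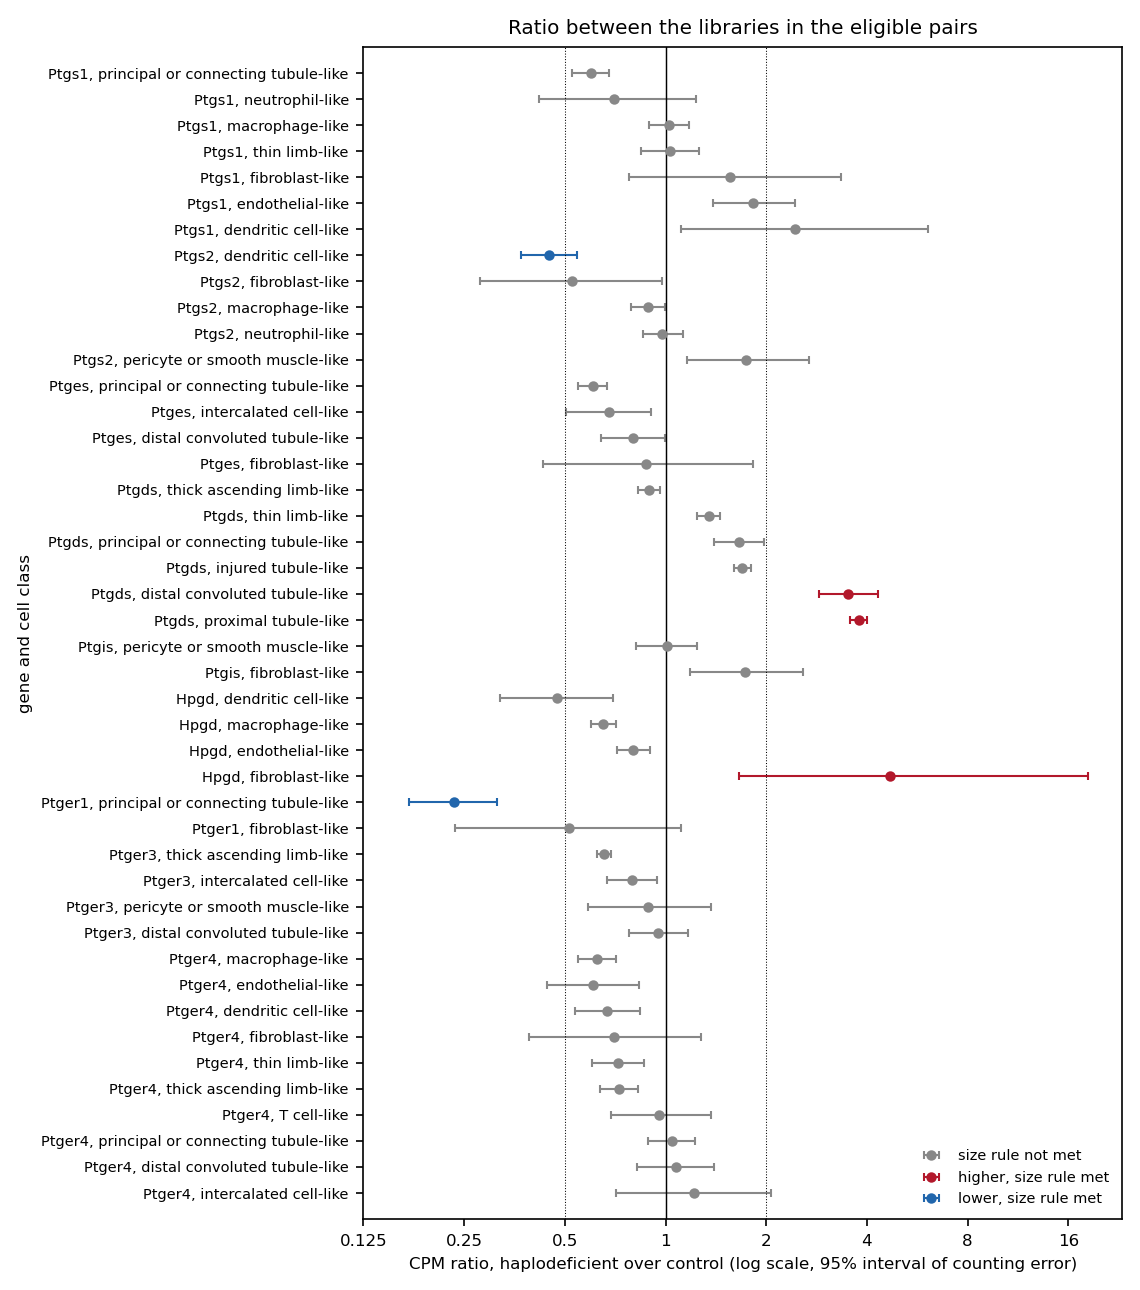
CPM ratio of the haplodeficient over the control library on a log axis for the 44 eligible pairs of gene and cell class, with exact conditional binomial intervals of counting error. The 5 coloured points met the size rule (red higher, blue lower), dotted lines mark ratios of 0.5 and 2, and the Hpgd point in fibroblast-like cells has the widest of the 5 intervals (1.65 to 18.3).

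The rest of the pathway was read from 5 lists of 34 genes in all. Of their 180 eligible pairs of a gene and a class, 2 were higher and 0 lower by the size rule, with a median log2 difference of 0.03. This is no larger a share than the 1.98% of all eligible pairs that met the rule. Ltc4s, leukotriene C4 synthase, was higher in intercalated cell-like cells (15.2 and 42.9 CPM), and Ltb4r1, a leukotriene B4 receptor, in neutrophil-like cells (48.5 and 149 CPM on 8 and 175 UMIs). In these 2 classes 2.78% and 3.85% of all eligible genes met the rule. Pla2g4a, the cytosolic phospholipase that starts the pathway, was highest in fibroblast-like cells at 230 and 219 CPM. Thromboxane synthase (Tbxas1) was highest in dendritic cell-like cells (256 and 297 CPM) and haematopoietic prostaglandin D synthase (Hpgds) in macrophage-like cells (149 and 171 CPM), whereas the tubules had Ptgds. Slco2a1, the uptake transporter that feeds Hpgd, was at 209 and 252 CPM in pericyte or smooth muscle-like cells and at 327 and 186 CPM in endothelial-like cells, with 237 and 229 CPM over both libraries, so the order of these classes was not the same in each library. Akr1b7 was nearly confined to pericyte or smooth muscle-like cells (294 and 296 CPM, with 4.38 CPM over both libraries in the next, endothelial-like, class). The prostaglandin F receptor gene Ptgfr was highest in distal convoluted tubule-like cells (191 and 125 CPM), the thromboxane receptor gene Tbxa2r in endothelial-like cells (32.7 and 58.6 CPM) and the prostacyclin receptor gene Ptgir in pericyte or smooth muscle-like cells (19.8 and 14.7 CPM). The EP2 gene Ptger2 had 205 UMIs in all and was highest in T cell-like cells (12.4 and 13.5 CPM). The D2 receptor genes Ptgdr and Ptgdr2 had 1 UMI each.

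The patterns of the 9 genes over classes were mostly unlike. Over 20 classes and endothelial subtypes with at least 100 cells in both libraries together, the closest pair was Ptges with Ptger1 (Pearson r 0.59 of log2(CPM + 5)), followed by Ptges with Ptger3 (0.46). By rank the order was another, with Ptgds and Ptger3 first (Spearman rho 0.65, Pearson r 0.22), then Ptgs2 and Hpgd (0.51) and Ptges and Ptger1 (0.50). Genes of at least 200 UMIs numbered 15479 with the 9 members counted. Among the others, those most like each member were Fxyd1 for Ptgis (0.99), Gm15406 for Ptgds (0.96), Gm26688 for Ptges (0.95), Gla for Ptgs2 (0.93), Gm11789 for Ptger3 (0.89), Cfap53 for Ptger1 (0.86), Pparg for Hpgd (0.84), Marcksl1 for Ptgs1 (0.82) and Tbc1d31 for Ptger4 (0.80). These correlations are descriptions, since the points share 2 libraries and endothelial subtypes are parts of 1 class. By rank correlation only 4 of the 27 genes in the top 3 of a member stayed there. Pparg had its own highest level in monocyte-like cells (187 and 308 CPM).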

How the data were processed

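The deposited matrices hold raw UMI counts per gene and barcode, made with Cell Ranger 4, per the file headers, on build mm10, per the submitters' processing notes. The kit reads the 3' end of transcripts, per the labels' protocols. Barcodes were kept from 500 UMIs and 200 genes upward and up to 50% mitochondrial UMIs, and the highest Scrublet scores were left out at 0.8% per 1000 cells (715 control and 804 haplodeficient barcodes), giving 107349738 and 93593939 UMIs in cells. Cells were clustered in scanpy 1.11.5 (2000 variable genes, 30 components, 15 neighbours, Leiden resolution 1) without the 9 genes and the pathway lists, into 37 clusters. Clusters were named from marker lists by a scoring rule chosen after the data had been seen: at least 3 markers, no lead by another class, and for deep clusters no second class. Unnamed cells were 4.86% and 4.39%. A second clustering at resolution 0.5 split the endothelial-like cells. UMIs were summed per class and library as CPM, with exact Poisson intervals and exact conditional binomial intervals of ratios. Shares of cells came from cells thinned to 1000 UMIs. The rule was checked on simulated endothelial counts with counting error alone, so the check does not cover differences between animals or preparations. Named were all 9 genes, list genes past the size rule and the class where each of at least 200 UMIs is highest (a selection of the last is printed), the closest gene by pattern and Egln3. Members and lists were chosen with earlier results of these data known. Genes overlapping on either strand in GENCODE M21 were found for 6 of the 9, and strand use in counting is not stated. Some other genes are not reported here.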

Additional observations from a re-analysis of the deposited data

Results flagged for a closer look

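In cells that entered no comparison of their own, 2 levels of the 9 genes were above the control by the size rule. Only higher levels were listed here, so lower ones, such as Ptger1 in the unnamed cluster given above, are left out. By the same rule 101 of 6448 eligible genes were higher in monocyte-like cells. In the pericyte or smooth muscle-like cells with renin-cell genes 21 of 1875 were higher. Hpgd was at 189 CPM (348 UMIs in 375 cells) in haplodeficient monocyte-like cells and at 56.8 CPM (14 UMIs in 55 cells) in the control, a ratio of 3.32 (counting interval 1.95 to 6.14). The class entered no comparison because the control library had under 100 such cells. Summed macrophage markers stood at 2045 and 1929 CPM and summed monocyte markers at 4694 and 6020 CPM there, control first. Ptgs2 was at 198 CPM (41 UMIs) in 44 haplodeficient pericyte or smooth muscle-like cells with renin-cell genes and at 16.6 CPM (2 UMIs) in 30 control cells. These cells are a subset of a compared class. The causes were not tested.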

How the results depend on the processing

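With 1 library per group and no shared replicates, animal differences cannot be told apart from the genotype, and low counts limit Hpgd in fibroblast-like cells most. No paired analysis was possible because each group has 1 library and the result comes from no test. The log2 difference of Ptgs2 in dendritic cell-like cells (-1.13) became -0.86 with at least 1000 UMIs per cell, -0.59 with at most 25% mitochondrial UMIs, -0.81 with likely doublets kept, -0.57 at Leiden resolution 2 and -0.37 with each cell classed by its own marker score. That of Hpgd in fibroblast-like cells (1.66) became 0.86 with doublets kept. That of Ptger1 in principal or connecting tubule-like cells (-1.57) became -0.53 with clusters weighted equally. That of Ptgds in proximal tubule-like cells (1.86) moved to 1.74 with at least 1000 UMIs per cell, 1.44 with the 25% limit, 1.75 with doublets kept, 1.63 with median-of-ratios scaling, 1.96 with clusters weighted equally and 1.66 without mitochondrial UMIs in the total, the last chosen after seeing the data. With genes eligible from 50 CPM, 955 pairs of a gene and a class met the size rule in place of 2223, and 2 of the members' pairs in place of 5. With the 25% limit and at resolution 2 the dendritic cell-like class was mostly other cells; the other causes were not tested. No member difference that met the rule changed sign under any alternative run. Of 468 alternative values of the 39 other eligible ratios, 26 had another sign and 28 lay outside the interval of the main value.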
